A study of Mus musculus with 18 samples.

Results

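Cdc42, Rac1, Rapgef2, Gnas and Prkca are 5 of the 248 panel genes measured in tibialis anterior (TA) muscle of tumor-bearing and control mice. They were chosen by name, as well expressed signaling genes of muscle, and all 5 passed the filter on low values in every model. Total RNA of male mice was counted with the mouse inflammation panel of the nCounter platform, in which color-coded probes bind RNA without amplification, with 100 ng loaded per sample. The 18 samples form 6 groups of 3, named here by the letters A, B and C of the labels, and the question was how muscle of tumor-bearing mice differs from that of matched controls in 3 models of cancer cachexia, a wasting of muscle and adipose tissue seen with many tumors.

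C26 mice were of strain CD2F1 and the tumor-bearing ones had received cells of the C26 colon carcinoma line, for which the labels give more than one cell number. LLC mice were C57/B6, and the tumor-bearing ones had received 500000 Lewis lung carcinoma cells. KPP mice were C57/B6, and their tumors were induced with intraperitoneal tamoxifen. The labels do not spell out the KPP alleles and do not say whether the controls of that model received tamoxifen or carried the alleles. They do not state age or time after injection. They also do not say that each sample is a separate mouse, so p-values measure the spread between these samples, part of which may be technical. No deposited value checks which mice carried tumors, and the C26 values of Prkca and of Map2k6 ran opposite to those of LLC and KPP. In KPP the Prkca effect was small (-0.20 on the log2 scale) with overlapping groups. Other genes ran either way. Mef2c was higher in C26 (1.16) and lower in LLC (-0.39) and KPP (-0.42). The 6 macrophage and monocyte markers had a median effect of -1.66 in C26, 0.54 in LLC and -0.01 in KPP. The adipocyte marker Cfd was lower in C26 (-5.63) and KPP (-1.93), with -0.03 in LLC. Ptgir, a prostacyclin receptor gene, was higher in all 3 models (0.64, 0.64 and 0.72), with overlapping groups in KPP. An exchange of labels was not tested. Every C26 direction rests on the labels: were they exchanged, the C26 effects would change sign, and the C26 minus LLC difference of Prkca and the average of Rapgef2 given below would not stand as stated.

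Cdc42 and Rac1 are small GTPases, switches that are active when bound to GTP and that shape the actin cytoskeleton; in muscle, Rac1 also takes part in insulin- and contraction-stimulated glucose uptake. Rapgef2 encodes an exchange factor that loads GTP onto Rap GTPases, relatives of Ras. Gnas encodes the stimulatory G protein alpha subunit, which couples receptors such as those for catecholamines and some prostaglandins to adenylyl cyclase and cyclic AMP, and Prkca encodes protein kinase C alpha, a kinase activated by calcium and diacylglycerol.

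No member passed an adjusted p of 0.05 in any model fitted alone, on the deposited values or after rescaling. In a direct comparison of models, the tumor effect of Prkca in C26 lay above that in LLC by 1.31 on the log2 scale (limma adjusted p = 0.0289). The same contrast called 23.6% of 123 genes, so such a call was not particular to Prkca. The Prkca call was lost without C26 control B, without C26 control C, with the letters as a block and with no filter. Averaged over the 3 models, a comparison added after the data were seen, Rapgef2 stood at 1.32 times its control level (limma adjusted p = 0.0187). This average called 11.4% of genes. The Rapgef2 call was lost without C26 control B, without KPP tumor C and with no filter. On deposited values Cdc42, Rac1, Rapgef2 and Gnas had intervals of the tumor effect that included 0 in all 3 models.

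The promoter window of Prkca is shown because Prkca gave the difference between models, and that of Cdc42 beside it as the member with the smallest spread on deposited values. They are RefSeq sequences of build GRCm38.p6, 250 bases before to 50 after the listed start, and bases are counted from the 5′ end of the window. Both lie on the minus strand of their chromosome, Cdc42 at chr4:137357710-137358009 and Prkca at chr11:108343839-108344138. Capitals mark GC boxes (GGGCGG on either strand) and the cyclic AMP response element TGACGTCA.
Cdc42: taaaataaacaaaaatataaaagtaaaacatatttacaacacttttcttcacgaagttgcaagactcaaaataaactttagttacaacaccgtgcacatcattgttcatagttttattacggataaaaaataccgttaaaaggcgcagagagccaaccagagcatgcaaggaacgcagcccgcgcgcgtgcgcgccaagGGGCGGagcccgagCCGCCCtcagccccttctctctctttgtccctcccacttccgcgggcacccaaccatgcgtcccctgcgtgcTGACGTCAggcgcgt
Prkca: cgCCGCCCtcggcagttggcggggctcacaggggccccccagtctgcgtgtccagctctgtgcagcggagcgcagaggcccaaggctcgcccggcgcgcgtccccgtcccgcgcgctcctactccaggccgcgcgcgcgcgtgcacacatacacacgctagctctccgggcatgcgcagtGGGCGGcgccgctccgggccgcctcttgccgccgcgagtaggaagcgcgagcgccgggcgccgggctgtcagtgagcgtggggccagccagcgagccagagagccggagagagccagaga

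Each of these windows held 2 GC boxes, starting at bases 200 and 214 in Cdc42 and at bases 3 and 181 in Prkca. The Cdc42 window also held the full response element TGACGTCA, at base 286, and the Prkca window did not hold even its shorter core TGACG on either strand. Of 32851 windows of 300 bases, 35.66% held the GC box, 1.79% the full element and 20.81% the core, which also lies within every full element. RefSeq lists 4 starts for Gnas, the gene of cyclic AMP coupling itself, and 3 of its 4 windows held the core, although 2 of these 3 windows overlap and share the same match. Rapgef2 has 2 listed windows and neither held any of these motifs. A match describes letters only and is not a bound site. Which of the Gnas transcripts the panel's probe detects is not known here.

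The deposited values are a normalized signal, each model having been scaled on its own to 6 housekeeping genes, so values are compared within a model. In C26 the scaling itself is unsteady. Gapdh and Pgk1, both enzymes of glycolysis, read higher in samples labelled tumor-bearing, by 0.79 and 0.85 on the log2 scale without overlap, while Cltc, the clathrin heavy chain, was lower (-0.36) without overlap. Gusb, Hprt and Tubb5 differed by -0.61, -0.37 and -0.29 with overlap. Member effects and their tests are therefore also given on values rescaled to Cltc, Gusb, Hprt and Tubb5, which raised tumor effects by 0.41 in C26 and shifted them by -0.06 in LLC and -0.20 in KPP. In KPP, Hprt was 0.68 higher in tumor-bearing muscle without overlap and Pgk1 0.55 lower with overlap (log2 difference -0.55), and tumor B was multiplied by 0.769.

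**Figure D1:**
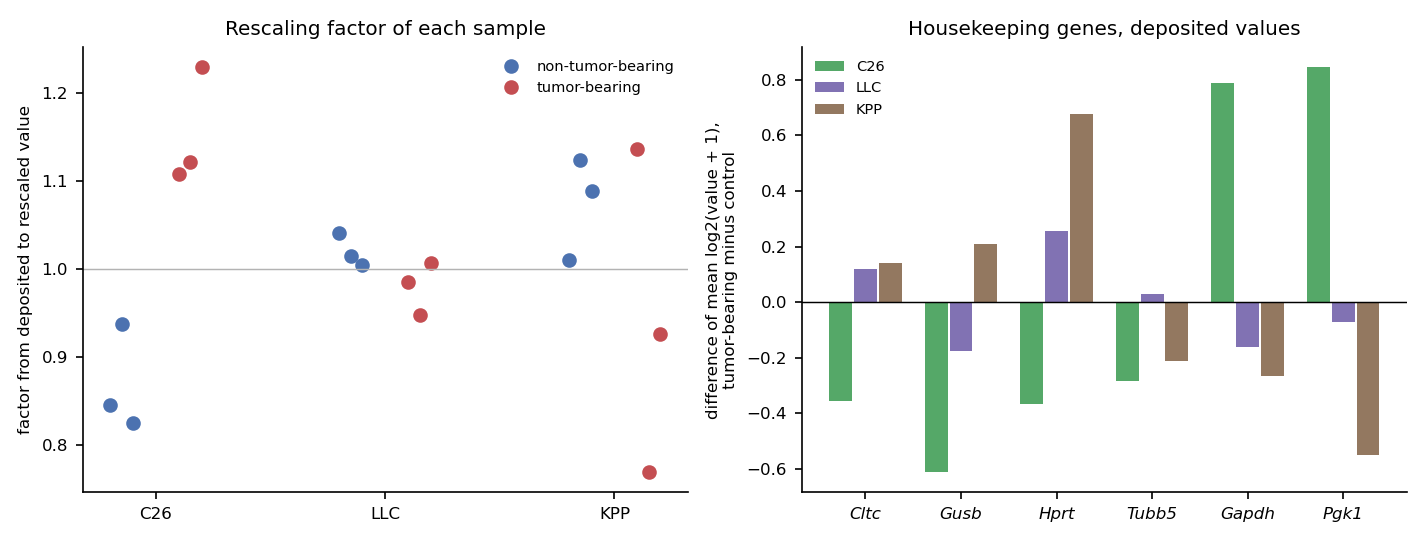
Left, the factor by which each sample's deposited values were multiplied to rescale them to 4 housekeeping genes; right, bars of the tumor-bearing minus control difference in mean log2(value + 1) of each housekeeping gene in each model. C26 tumor-bearing samples have factors of 1.11 to 1.23 against 0.825 to 0.938 in controls, and in C26 the Gapdh and Pgk1 bars lie above 0 and the other 4 below.

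Counts behind the gene values, read from the step between low values, ranged from 29748 to 402855 per sample. C26 tumor-bearing samples (29748 to 50783) were shallower than C26 controls (75576 to 95074). Counting error on the members was small for the abundant genes, 0.558% to 1.93% of the value for Gnas and 0.761% to 2.33% for Cdc42. It was larger for Rapgef2 (2.43% to 10.8%) and Prkca (2.62% to 8.28%). These errors cover counting only.

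Cdc42, the GTPase switch known for cell polarity and filopodia, read 3104, 3861 and 4809 in C26 controls A, B and C and 3469.9, 3392 and 4007 in the tumor-bearing samples. In LLC it read 2842, 2591 and 2695 in controls and 2881.5, 2604 and 2346 in tumor-bearing muscle. In KPP it read 8985, 10721 and 9513 in controls and 8850.2, 10395 and 9535 in tumor-bearing muscle. The groups overlapped in every model, and the widest spread was among the C26 controls. The tumor effect, on the log2(value + 1) scale that holds for all fold changes here, was -0.10 in C26 (95% interval -0.70 to 0.51), -0.06 in LLC (-0.38 to 0.27) and -0.02 in KPP (-0.49 to 0.45). None passed in limma with Benjamini-Hochberg adjustment (adjusted p = 0.805, 0.875 and 0.980). The LLC interval is the narrowest and leaves out changes of more than 0.38 in either direction, but the C26 sign depends on the scaling, since rescaling turned that effect to 0.31.

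Rac1, the GTPase switch of lamellipodia and of a NADPH oxidase complex, read 1784.55, 2293 and 2366 in C26 controls and 1772, 1782 and 2025 in C26 tumor-bearing muscle. In LLC it read 1910.65, 1668 and 1594 in controls and 2319, 1860.4 and 1876 in tumor-bearing muscle. In KPP it read 6518, 7087 and 6317 in controls and 8276, 8843 and 8539 in tumor-bearing muscle. KPP was the model in which all 3 tumor-bearing samples lay above all 3 controls. The KPP effect was 0.37 (SE 0.19, 95% interval -0.08 to 0.81, limma adjusted p = 0.323), and it did not hold under rescaling, where it was 0.16 with overlapping groups, KPP tumor B falling to 6797. In C26 and LLC the effects were -0.20 (SE 0.22, limma adjusted p = 0.579) and 0.22 (SE 0.16, limma adjusted p = 0.506; 0.12 without LLC tumor A), and rescaling turned the C26 value to 0.21.

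Rapgef2, the Rap exchange factor, read 122, 133 and 144 in C26 controls and 189, 177.5 and 188 in C26 tumor-bearing muscle. In LLC it read 142, 137 and 141 in controls and 168, 139.8 and 186 in tumor-bearing muscle. In KPP it read 560.4, 708 and 529 in controls and 766, 1018 and 793 in tumor-bearing muscle. The groups stood apart in C26 and KPP, and in LLC tumor B lay among the controls while tumors A and C lay above them.

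The Rapgef2 effect was 0.47 in C26 (SE 0.20, 95% interval -0.02 to 0.96, limma adjusted p = 0.161), 0.22 in LLC (SE 0.15, -0.13 to 0.57, adjusted p = 0.506; 0.13 without tumor C and 0.33 without tumor B) and 0.52 in KPP (SE 0.23, -0.03 to 1.07, adjusted p = 0.279). After rescaling it was 0.88 in C26 (SE 0.23, limma adjusted p = 0.0712), 0.16 in LLC and 0.31 in KPP, where KPP control B (795.5) then lay above tumors B and C. The value was positive in each model under both scalings. Since no single model had passed, the average over the models was tested as a comparison added after the data were seen. In a fit of all 18 samples with group-wise weights, Rapgef2 rose by 0.40 (SE 0.11, 95% interval 0.18 to 0.63, limma adjusted p = 0.0187) and ranked 11 by p among 123 genes, of which 11.4% were called. On rescaled values the average was 0.45 (SE 0.12, limma adjusted p = 0.0190), with 12.2% of genes called. The call was lost without C26 control B (limma adjusted p = 0.0977), without KPP tumor C (0.0517) and with no filter on low values (0.0813).

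The other members were not called in the average. Gnas stood at 0.20 (limma adjusted p = 0.187), Rac1 at 0.13 (0.490), Prkca at 0.04 (0.904) and Cdc42 at -0.06 (0.741).

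Gnas read 3661, 4892 and 3957 in C26 controls and 4801, 5533 and 5877 in C26 tumor-bearing muscle. In LLC it read 4909.95, 4636 and 4663 in controls and 5388, 4873 and 4584 in tumor-bearing muscle. In KPP it read 16004, 17848 and 17127 in controls and 20465, 19334 and 17128 in tumor-bearing muscle. Groups overlapped in all 3 models, in C26 only because control B lay above tumor A. The effects were 0.38 in C26 (SE 0.23, limma adjusted p = 0.295), 0.06 in LLC (adjusted p = 0.861) and 0.16 in KPP (SE 0.19, adjusted p = 0.707). Rescaling parted the C26 groups, with an effect of 0.79 (95% interval 0.13 to 1.45, limma adjusted p = 0.103), and turned the KPP value to -0.05.

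Prkca, the calcium-dependent kinase, read 180.3, 222 and 133 in C26 controls and 258, 275 and 405 in C26 tumor-bearing muscle. In LLC it read 360.2, 362 and 368 in controls and 298, 321 and 176 in tumor-bearing muscle. In KPP it read 1282, 1168 and 1243 in controls and 1483, 762 and 1088 in tumor-bearing muscle. All 3 tumor-bearing samples lay above the controls in C26 and below them in LLC, and in KPP tumor A lay above the controls and tumors B and C below. The LLC controls were close together, whereas LLC tumor C was far lower than the other two.

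The Prkca effect was 0.81 in C26 (SE 0.30, 95% interval 0.07 to 1.54, limma adjusted p = 0.126) and 1.21 after rescaling (SE 0.36, 0.36 to 2.07, adjusted p = 0.0794). In LLC it was -0.50 (SE 0.23, -1.03 to 0.03, limma adjusted p = 0.271) and -0.56 after rescaling (SE 0.22, adjusted p = 0.193), and -0.23 without LLC tumor C on deposited values. In KPP it was -0.20 (SE 0.28, limma adjusted p = 0.739), and 0.05 without KPP tumor B.

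The differences between models were tested directly in the weighted fit of all 18 samples. The C26 effect of Prkca lay above the LLC effect by 1.31 (SE 0.40, 95% interval 0.44 to 2.17, limma adjusted p = 0.0289) and by 1.77 after rescaling (SE 0.48, adjusted p = 0.0160). Of the 123 genes, 23.6% were called in this contrast on deposited values and 26.8% after rescaling, so 1 of 5 members is near the panel's own share. Without C26 control B the adjusted p was 0.0768, and without C26 control C it was 0.122. The KPP effect of Prkca differed from the C26 effect by -1.01 (SE 0.46, limma adjusted p = 0.144; 17.1% of genes called) and, called after rescaling, by -1.62 (SE 0.53, adjusted p = 0.0379; 22% called). KPP and LLC effects of Prkca differed by 0.30 (SE 0.35, limma adjusted p = 0.661), in a contrast that called 5.69% of genes on either scaling.

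No other member was called in a difference between models. The smallest adjusted p among them belonged to Gnas on rescaled values, with C26 above LLC by 0.79 (limma adjusted p = 0.0617) and KPP below C26 by 0.84 (difference -0.84, limma adjusted p = 0.0824). Rac1 had a KPP effect 0.57 above its C26 effect on deposited values (limma adjusted p = 0.169) and -0.05 after rescaling.

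**Figure D2:**
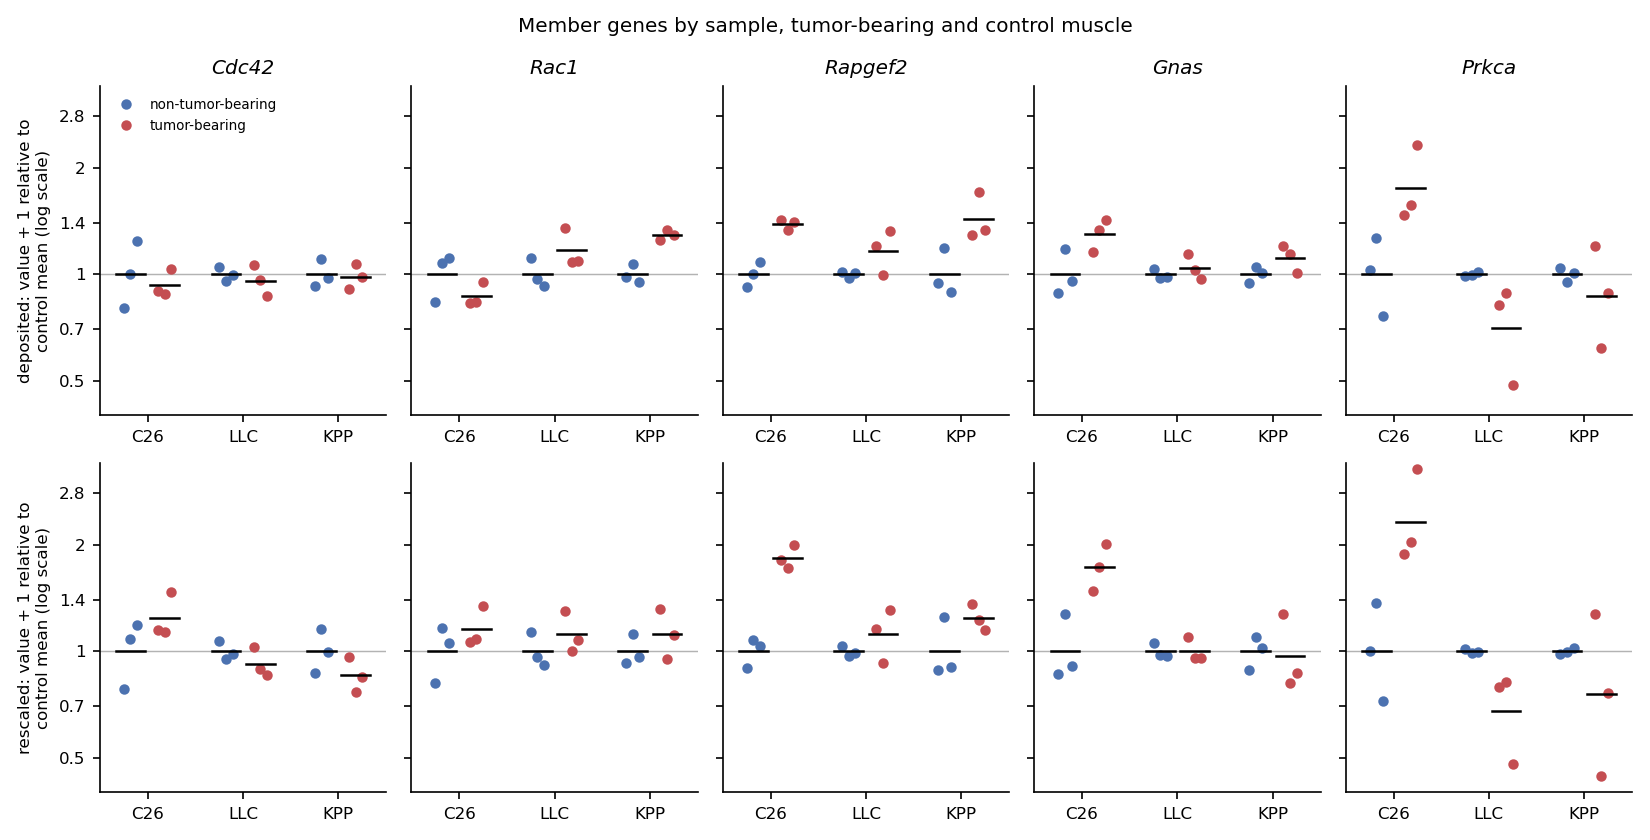
Each member's value plus 1 in each sample, divided by the geometric mean of its model's controls, on a log axis, as deposited (top) and rescaled to 4 housekeeping genes (bottom); bars are geometric means of 3 samples. Cdc42 groups overlap in every panel, Rapgef2 lies above its controls in C26 under both scalings, and Prkca lies above 1 in C26 and below 1 in LLC.

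Read as a set, 0 of 5 members were called in each model fitted alone, by limma on either scaling. The background was 4.69% of 128 genes in C26, 6.2% of 129 in LLC and 3.82% of 157 in KPP on deposited values, and 6.25%, 0.775% and 6.37% after rescaling. At an unadjusted p under 0.05 limma gave 1 member in C26 and 0 in LLC and KPP, against 32.8%, 20.2% and 17.2% of all kept genes. After rescaling it gave 3, 1 and 0, against 33.6%, 19.4% and 24.2%. Members whose tumor-bearing samples all lay above the controls numbered 2 in C26 against 12.5% of genes, 0 in LLC against 17.8% and 2 in KPP against 16.6%. After rescaling they numbered 3, 0 and 0, against 25.8%, 14% and 10.8%. In LLC 1 member lay wholly below its controls on either scaling, against 9.3% of genes on deposited and 11.6% on rescaled values.

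The median effect over the 5 members was 0.38 in C26, 0.06 in LLC and 0.16 in KPP, beside medians of -0.28, 0.07 and 0.01 over all kept genes. On rescaled values the members' medians were 0.79, 0.00 and -0.05, beside 0.12, 0.02 and -0.19. The unweighted fit of all 18 samples, which pools the spread over the models, called Rapgef2 (limma adjusted p = 0.0388) and Prkca (0.0375) in C26 on deposited values, in a fit that called 34.1% of its 123 genes. On rescaled values it called Rapgef2 (limma adjusted p = 0.00226), Gnas (0.00711) and Prkca (0.0116) in C26, with 36.6% of genes called.

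**Figure D3:**
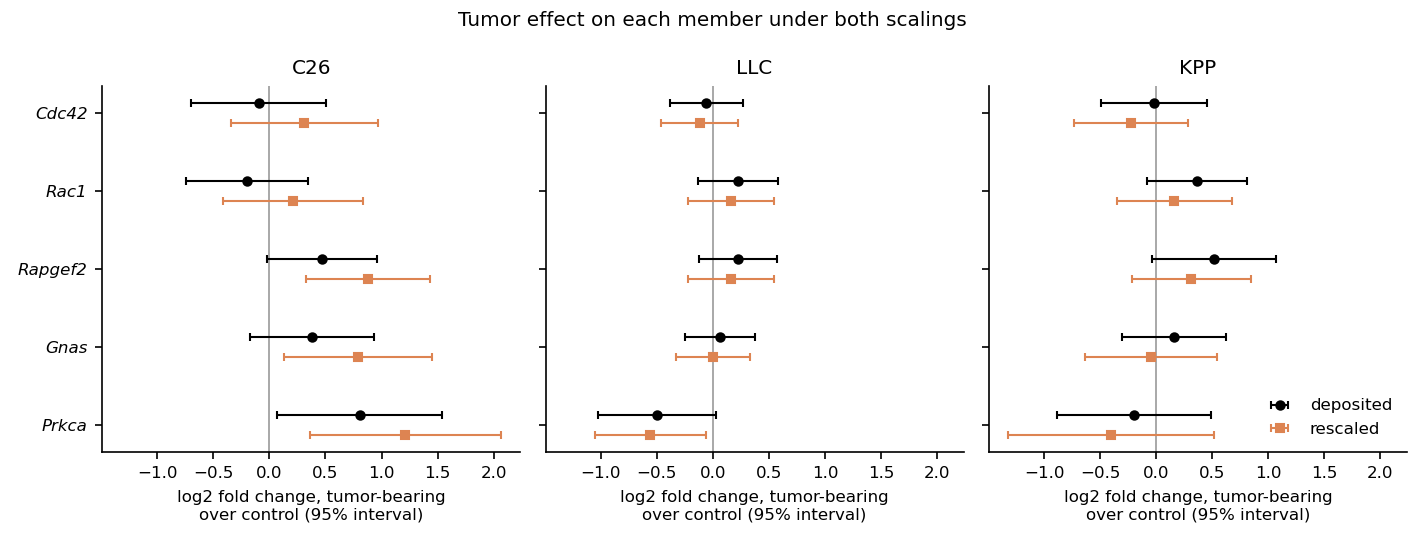
Tumor effect of each member in each model with its 95% interval, on the log2(value + 1) scale, for deposited and rescaled values. The Prkca points lie on opposite sides of 0 in C26 (0.81) and LLC (-0.50), and the Cdc42 and Rac1 intervals span 0 throughout.

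Ratios within a sample are free of any scaling. Cdc42 was taken as the denominator after its deposited values had been seen to vary least (after rescaling Rac1 varied least), so these ratios are a description. Rapgef2 per 100 of Cdc42 was 3.94, 3.44 and 3.004 in C26 controls and 5.46, 5.23 and 4.68 in C26 tumor-bearing muscle. In LLC it was 5.01, 5.28 and 5.23 in controls and 5.84, 5.37 and 7.93 in tumor-bearing muscle, and in KPP 6.24, 6.60 and 5.57 against 8.66, 9.79 and 8.32. The tumor-bearing samples thus lay above the controls without overlap in every model, by 1.49-fold in C26, 1.22-fold in LLC and 1.45-fold in KPP. In LLC the lack of overlap rests on tumor B at 5.37 against control B at 5.28. Counting error on Rapgef2 was 9.8% and 9.2% of the value in these samples, so that gap lies within it.

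Rapgef2 was the 1 gene of 122 (0.82%) with that pattern per Cdc42 in all 3 models. The pattern rests on the denominator: Cdc42 was the only other member that gave it, 6 of 122 panel genes gave it as denominators, and 0 of 6 housekeeping genes did. Prkca per 100 of Cdc42 was 4.78 ± 1.74 (SD, n = 3) in C26 controls and 8.56 ± 1.39 in C26 tumor-bearing muscle, and 13.4 ± 0.668 and 10.1 ± 2.42 in LLC, apart without overlap in opposite directions. In KPP it was 12.7 ± 1.71 and 11.8 ± 4.73, with overlap. Gnas per Cdc42 was higher without overlap in C26 (1.39-fold) and LLC (1.09-fold), and Rac1 per Cdc42 in LLC (1.22-fold) and KPP (1.31-fold). Of all kept genes, 18.1% in C26, 25.8% in LLC and 19.9% in KPP lay above their controls in this way, and 8.59% lay below in LLC.

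Divided by the geometric mean of the 6 housekeeping genes, the same probe can be set side by side across models as a description, since the models were normalized separately. Cdc42 ran from 4.42 ± 0.453 (SD, n = 3) in LLC tumor-bearing muscle through 4.58 ± 0.213 in LLC controls, 5.42 ± 0.438 and 5.51 ± 0.503 in KPP tumor-bearing and control muscle and 6.81 ± 0.629 in C26 tumor-bearing muscle to 7.38 ± 1.60 in C26 controls. Within each model these neighbours did not differ beyond their spread. Per 4 housekeeping genes the highest Cdc42 group was instead C26 tumor-bearing muscle, at 22.2 ± 3.37 against 18.02 ± 3.70 in C26 controls. Rac1 ran from 2.92 ± 0.280 in LLC controls to 4.83 ± 0.160 in KPP tumor-bearing muscle, with LLC tumor-bearing (3.41), C26 tumor-bearing (3.50), KPP control (3.75) and C26 control (4.04) muscle between them in overlapping steps.

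Rapgef2 was lowest in LLC and C26 controls, at 0.237 ± 0.00474 and 0.250 ± 0.0208, and these did not differ beyond their spread. It was 0.278 ± 0.0394 in LLC tumor-bearing muscle, 0.339 ± 0.0538 in KPP controls, 0.347 ± 0.0120 in C26 tumor-bearing muscle and highest, 0.486 ± 0.0782, in KPP tumor-bearing muscle. Per 4 housekeeping genes C26 controls (0.612 ± 0.0585) lay wholly below LLC controls (0.710 ± 0.0237), and KPP tumor-bearing muscle was again highest. Gnas lay between 7.84 ± 1.21 in C26 controls and 10.7 ± 0.960 in KPP tumor-bearing muscle, with LLC controls at 8.01, LLC tumor-bearing muscle at 8.37, KPP controls at 9.61 and C26 tumor-bearing muscle at 10.2. Per 4 housekeeping genes its highest group was C26 tumor-bearing muscle, at 33.1 ± 5.06, against 29.2 ± 7.45 in KPP tumor-bearing muscle. Prkca showed the widest range, from 0.336 ± 0.0838 in C26 controls to 0.696 ± 0.0327 in KPP controls. Between them came LLC tumor-bearing muscle (0.449), C26 tumor-bearing muscle (0.588), LLC controls (0.614) and KPP tumor-bearing muscle (0.628), each overlapping the next. The C26 controls of Prkca thus lay below the controls of the other models, which had 0.609 as their lowest sample against 0.418 as the highest C26 control, or 1.82 against 1.10 per 4 housekeeping genes.

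After each model's mean was taken out, deposited log2 values of Cdc42 varied least over the 18 samples (SD 0.143), followed by Gnas (0.163), Rac1 (0.180), Rapgef2 (0.251) and Prkca (0.397). On rescaled values Rac1 varied least (0.188), then Cdc42 (0.200), and Prkca again most (0.540). Likeness was measured as the root mean square difference of these centred deposited log2 values over the 18 samples. Nearest to Cdc42 were Map2k1, a MAP kinase kinase (0.121), Nfkb1, an NF-kappa-B subunit (0.135), and Rac1 (0.160). Among the nearest to Rac1 were Nfkb1 (0.157) and Cdc42 (0.160). Both GTPases were thus among each other's 3 nearest genes. Rapgef2 lay nearest to Gnas (0.201), then to the muscle transcription factor Mef2d (0.216) and the kinase Mapkapk2 (0.217). Gnas lay nearest to the adaptor Grb2 (0.135), Mapkapk2 (0.144) and the glucocorticoid receptor gene Nr3c1 (0.152).

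Prkca lay nearest to Mef2c, another muscle transcription factor (0.238), the kinase gene Map3k7 (0.306) and the growth factor gene Pdgfa (0.317). These distances are larger than those of the other members to their nearest genes. The measure grows with a gene's own spread, however, and Prkca itself varied most (SD 0.397). The median difference to all genes ranged from 0.419 for Cdc42 to 0.647 for Prkca. These likenesses share the same libraries and the same scaling, and steady genes are near to each other by construction.

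Genes around the members were read from 5 lists, on G proteins and cyclic AMP, Gs-coupled receptors, phospholipase and protein kinase C, Ras and Raf, and MAP kinases. Of 39 listed genes 25 are on the panel, and 17 passed the filter in C26, 18 in LLC and 21 in KPP. In C26 1 rose and 0 fell on deposited values, in LLC 1 rose and 0 fell, and in KPP 0 were called. After rescaling 2 rose in C26 and 0 were called in LLC and KPP. Their median effect was 0.14 in C26, -0.07 in LLC and 0.03 in KPP, or 0.54, -0.13 and -0.18 after rescaling.

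The gene that rose in C26 was Map2k6, the kinase that activates p38. It went from 85.0 ± 32.3 (SD, n = 3) in controls to 392 ± 9.40, a log2 effect of 2.26 (SE 0.32, limma adjusted p = 0.0140) that was 2.67 after rescaling (adjusted p = 0.0131). Its values pointed the other way in KPP, from 1085 ± 13.7 to 220.4 ± 175 (-2.61, SE 0.57, limma adjusted p = 0.0547), and in LLC (-0.61, SE 0.19). Ptgir, the Gs-coupled prostacyclin receptor upstream of Gnas, rose in LLC from 26.6 ± 3.65 to 41.8 ± 2.75 (0.64, SE 0.15, limma adjusted p = 0.0489) but was not called there after rescaling (0.58). In C26 its effect was also 0.64 (limma adjusted p = 0.0979) and was called after rescaling only (1.04, adjusted p = 0.0418).

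The lists closest to each member held no other call. Of the G protein list, 2 genes in C26 and LLC and 3 in KPP passed, and Gnaq, the alpha subunit that activates phospholipase C, stood at 0.19, -0.25 and 0.47. Of the phospholipase and protein kinase C list, 2, 2 and 3 of 4 passed, and Prkcb, another conventional protein kinase C gene, passed the filter only in KPP (-0.80). The Ras and Raf list gave 3, 3 and 4 of 4, with effects from -0.54 to 0.14 in C26, -0.28 to -0.01 in LLC and -0.37 to 0.29 in KPP. The MAP kinase list gave 9 of 10 in each model, with Map2k6 at one end in all of them.

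**Figure D4:**
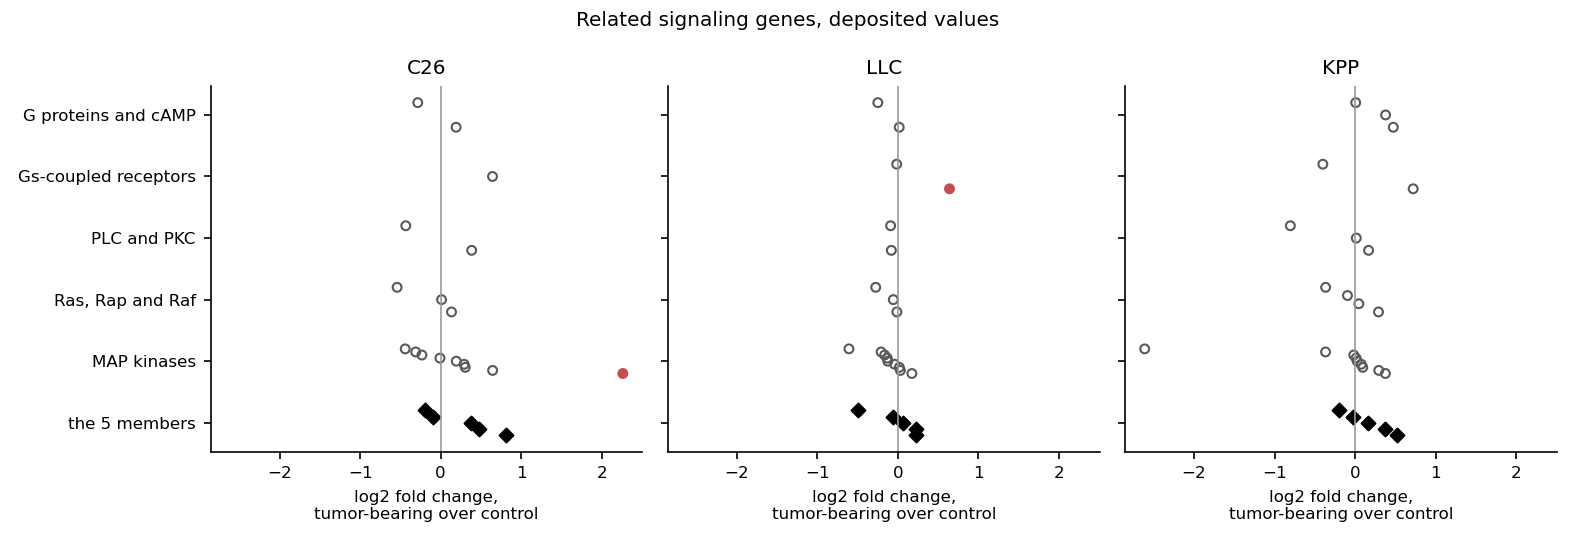
Tumor effects of the listed genes around the members in each model on deposited values, log2(value + 1) scale. Filled red points passed an adjusted p of 0.05 (Map2k6 in C26 and Ptgir in LLC), open points did not, and diamonds are the 5 members.

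In bulk muscle, fewer cells of a type and less RNA per cell cannot be told apart. Marker values on the deposited scale are given beside the members. In C26 the 5 muscle markers, all of them detected, summed to 2202 to 3502 in controls and 3985 to 4888 in tumor-bearing samples. Most of that gap came from Mef2c (mean 1325 in controls and 2713 in tumor-bearing samples) and Hspb2 (456 and 759), whereas Mef2d stood at 0.12 and Mef2a at -0.29, and limma called 0 of the 5. The 6 macrophage and monocyte markers summed to 665 to 3239 in C26 controls, A being the highest, and to 228 to 498 in tumor-bearing samples. 0 of these 6 were called and 4 lay below their controls without overlap, beside 38 of all 128 kept genes. After rescaling 2 of the 6 did, beside 19 of the 128. The adipocyte marker Cfd fell in C26 (log2 effect -5.63, limma adjusted p = 0.0140), from 1390 to 9604 in controls to 47.0 to 87.4. The 5 connective tissue markers summed to 2087 to 6062 in C26 controls and 1096 to 1809 in tumor-bearing samples, with C3 at -2.43 and C1s at -1.18 but C7 at 0.98, and limma called 0 of them.

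In LLC, where Prkca was lower, the muscle marker sum was 4322 to 4540 in controls and 3315 to 4580 in tumor-bearing samples, tumor C having the lowest sum and the lowest Prkca. All 6 macrophage markers had higher means there, with sums of 380 to 482 against 549 to 750, and Ccr2 was called (0.87, limma adjusted p = 0.0445) on deposited but not on rescaled values (0.81, adjusted p = 0.0532). In KPP 3 of 5 connective tissue markers fell, C7 (-2.60), C1ra (-1.59) and C3 (-1.51), and Cfd lay wholly below its controls (-1.93, limma adjusted p = 0.157). KPP muscle marker sums overlapped, at 12076 to 14257 and 11941 to 13429. Among KPP tumor-bearing samples, B had the highest sum and the lowest Prkca (762), unlike LLC tumor C. Among those of C26, C was highest in both. KPP macrophage marker sums overlapped as well, at 1236 to 1926 and 851 to 2220. The neutrophil list had 0 of 3 genes above the filter in C26 and LLC and 2 in KPP, where Mmp9 fell (-1.56, limma adjusted p = 0.0247). The lymphocyte list had 1, 1 and 2 of 6 genes above the filter, 0 of them called by limma. The endothelial marker Flt1 read 727 to 963 in KPP controls and 1426 to 1838 in KPP tumor-bearing muscle (0.93, limma adjusted p = 0.0696). The part of these marker differences in the member values was not tested.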

How the data were processed

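The 18 samples were grouped by their titles. The values the authors deposited are a normalized signal; their processing steps are not given in the sources used. Read from the values, each model had its own scaling to 6 housekeeping genes, a background was subtracted in C26 and KPP, and LLC values under 20 were written as 20. Because of that subtraction and floor, whole counts could not be recovered for every gene, and no count test was run.

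Each model was fitted alone with limma 3.58.1 in R 4.3.3 on log2(value + 1), two-sided, moderated by empirical Bayes and adjusted by Benjamini-Hochberg over the genes that reached 20 (in LLC, exceeded it) in at least 3 of the 6 samples. The threshold was an adjusted p of 0.05. Differences between models and their average used all 18 samples with group-wise weights over 123 genes. SE is limma's standard error and SD the spread of 3 values. All fits were repeated on values rescaled to Cltc, Gusb, Hprt and Tubb5. The fit of each model alone was tested on simulated data, and the weighted fit of all 18 samples was not. The other alternatives were a pseudocount of 20, no filter, a minimum of 50, median centring, quantile normalization, the shared fit, trend and robust moderation, the letters as a block, and leaving out each sample. Promoter windows come from RefSeq.

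Named are the 5 members, the housekeeping genes, the listed genes that passed, the extremes of a list's range and the 3 genes nearest to each member. Cell type markers are named where a marker list shifted or passed. One gene list and 1 panel gene near a member are not reported here. The members and lists were chosen with earlier results of these data known. Same-letter samples did not deviate together (correlations from -0.335 to 0.245), so the letters were not used as pairs. No 2 samples held identical values.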

Additional observations from a re-analysis of the deposited data

Results flagged for a closer look

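The tumor effect of Prkca differed between models by the direct test of that difference: it was 1.31 higher in C26 than in LLC on the log2 scale (limma adjusted p = 0.0289). All 3 C26 tumor-bearing samples lay above their controls and all 3 LLC ones below. This pattern was not particular to Prkca. Mef2c, its nearest gene, lay above its controls in C26 (1.16) and below them in LLC (-0.39) without overlap. Map2k6 did so too (2.26 and -0.61). For Prkca, leaving out 1 sample at a time gave differences from 1.04 to 1.48. The call was lost without C26 control B (limma adjusted p = 0.0768) or C26 control C (0.122), with the letters as a replicate block (0.0644) and with no filter (0.0771), and 23.6% of the 123 genes were called in the same contrast.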

How the results depend on the processing

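Rescaling to 4 housekeeping genes turned Cdc42 (0.31) and Rac1 (0.21) in C26 and Gnas in KPP (-0.0477). It also turned the differences KPP minus C26 of Cdc42 (-0.54), Rac1 (-0.0473) and Rapgef2 (-0.56), KPP minus LLC of Cdc42 (-0.11), Rac1 (-0.0041) and Gnas (-0.05), and C26 minus LLC of Cdc42 (0.43) and Rac1 (0.0432). None of these 11 passed the test under either scaling. Median centring turned Cdc42 in C26 (0.39) and KPP (0.0468), Rac1 in C26 (0.29) and Gnas in LLC (-0.0935), and quantile normalization turned Cdc42 in C26 (0.29) and LLC (0.12), Rac1 in C26 (0.36) and Gnas in KPP (-0.76).

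Panel genes called numbered 6 in C26, 8 in LLC and 6 in KPP. Rescaled, they numbered 1 in LLC and 10 in KPP, and 1 in LLC under median centring or quantile normalization. Without a filter LLC had 0. The shared fit called 42, 0 and 13 genes and 2 members in C26, and trend and robust moderation 11 in KPP. With the letters as a replicate block, C26, LLC and KPP had 2, 15 and 1. Members that differed between models numbered 1 (Prkca), but 2 calls were made when rescaled, both of Prkca, and 0 under the block (limma adjusted p = 0.0644) or without a filter (0.0771). A pseudocount of 20 changed no call of a member. A minimum of 50 was run for the models fitted alone, where it gave no member a call. Where no cause is given by fewer genes or samples, the cause was not tested.

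Leaving out 1 sample at a time gave 0 to 27 calls in C26 (27 without control A, 0 without any 1 of the tumor samples), 1 to 14 in LLC, 1 to 7 in KPP and 0 to 1 member differing. Effects ran from -0.25 to 0.0615 (Cdc42 in C26), -0.13 to 0.0169 (Cdc42 in LLC), -0.0804 to 0.0502 (Cdc42 in KPP), -0.0025 to 0.11 (Gnas in LLC), -0.43 to 0.0463 (Prkca in KPP), -0.0421 to 0.13 (Prkca average) and 0.36 to 0.45 (Rapgef2 average). Differences ran from -0.20 to 0.12 (Cdc42, C26 minus LLC), -0.0825 to 0.23 and -0.0379 to 0.11 (Cdc42, KPP minus C26 and KPP minus LLC) and -0.0817 to 0.17 (Rapgef2, KPP minus C26). The average was added after seeing the data. Groups of 3 limit all of these results.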
